A study of Mus musculus with 2 samples.

Results

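The transcription factor Atf4 and 9 genes known as its targets or partners in the cellular stress response were followed through a single-cell RNA sequencing comparison of mouse cortex. The 10 genes were Atf4, Atf5, Ddit3, Trib3, Chac1, Asns, Psat1, Phgdh, Sesn2 and Slc7a11, taken as every row of the deposited gene tables that carries 1 of these symbols. They filled 11 of 32285 rows, because Ddit3 has a pair of identifiers. The study asked how transcription differs between Fam69c knockout (KO) and wild-type (WT) cortex within each cell type. Both groups were male mice aged 4 months, whose cortices were pooled by genotype, dissociated, stained with the viability dye 7-AAD and sorted. Each genotype gave 1 library of the 10x Genomics droplet type (3' kit, v3.1), which captures the 3' ends of polyadenylated transcripts. The labels do not state the strain, the allele or the deleted part of Fam69c. They give 7 mice without saying whether that is the number per genotype.

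ATF4 is a leucine zipper transcription factor whose messenger RNA is always present at some level but is translated mainly when the initiation factor eIF2 is phosphorylated, as during amino acid shortage, endoplasmic reticulum stress or heme shortage. The protein then switches on genes for amino acid synthesis and import, for glutathione supply, and, when stress lasts, for cell death. Its activity is therefore usually read from the transcripts of its targets rather than from Atf4 itself. In the healthy brain some of these targets also have steady roles: astrocytes make serine through Phgdh and Psat1 and import cystine through Slc7a11.

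ATF4 binds, as a heterodimer with C/EBP proteins, a composite element written TGATGNAAN. The windows from 250 bases before to 50 bases after the annotated transcript start (RefSeq, GRCm38.p6) were searched for these letters on both strands. They are shown here because the members most often used as readouts of ATF4 differed in whether the letters occur. All 10 members had a window, 12 windows in all, and 4 members had a match, against 4.5% of 27025 genes. Over windows the share among all genes was 3.95% of 32851. The 4 windows are printed 5′ to 3′ on the gene's own strand, with the matched letters in capitals.
Trib3: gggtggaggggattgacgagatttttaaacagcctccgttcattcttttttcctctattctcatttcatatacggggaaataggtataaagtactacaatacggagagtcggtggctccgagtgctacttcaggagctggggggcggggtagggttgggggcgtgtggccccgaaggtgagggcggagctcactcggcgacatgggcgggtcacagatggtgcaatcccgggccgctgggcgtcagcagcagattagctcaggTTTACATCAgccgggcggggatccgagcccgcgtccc
Chac1: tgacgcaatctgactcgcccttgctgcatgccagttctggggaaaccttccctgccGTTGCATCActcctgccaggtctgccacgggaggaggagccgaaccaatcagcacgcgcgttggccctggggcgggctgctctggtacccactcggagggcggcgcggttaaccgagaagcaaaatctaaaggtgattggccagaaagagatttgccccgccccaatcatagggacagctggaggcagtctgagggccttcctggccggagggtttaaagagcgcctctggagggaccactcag
Asns: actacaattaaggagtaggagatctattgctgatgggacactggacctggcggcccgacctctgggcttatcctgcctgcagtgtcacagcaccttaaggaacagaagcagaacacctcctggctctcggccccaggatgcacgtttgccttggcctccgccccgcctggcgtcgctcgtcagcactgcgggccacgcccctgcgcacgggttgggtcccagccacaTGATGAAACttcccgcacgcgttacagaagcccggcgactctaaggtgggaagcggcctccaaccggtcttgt
Slc7a11: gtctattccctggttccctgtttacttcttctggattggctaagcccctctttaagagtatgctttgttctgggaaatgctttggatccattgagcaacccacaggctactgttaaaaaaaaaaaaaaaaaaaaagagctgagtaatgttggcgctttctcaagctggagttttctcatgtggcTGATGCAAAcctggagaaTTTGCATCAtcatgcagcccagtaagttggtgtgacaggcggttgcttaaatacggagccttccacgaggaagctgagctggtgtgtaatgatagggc
The Trib3 window is chr2:152344011-152344310 (minus strand), with a match read on the opposite strand from base 14 after the start. The Chac1 window is chr2:119350992-119351291 (plus strand), with an opposite-strand match whose first printed base lies at -194. The Asns window is chr6:7693160-7693459 (minus strand), with a match on the printed strand at -23. The Slc7a11 window is chr3:50443564-50443863 (minus strand) and holds the letters on the printed strand at -66 and on the opposite strand at -48. No match was found in the windows of Atf4, Atf5, Ddit3, Psat1, Phgdh or Sesn2. A match describes letters only and is not evidence of a bound site, and a window without one says only that these letters do not occur within it.

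Transcripts were counted by unique molecular identifiers (UMIs), short random tags that mark each captured molecule. There were 9182 barcodes with 75473717 UMIs in the KO library and 7150 barcodes with 57166105 UMIs in the WT library. After quality filters and doublet removal 7032 KO and 4940 WT cells remained, with a median of 8449 UMIs per KO cell and 8580 per WT cell, and 17 barcode sequences occurred in both libraries. Cells were sorted into classes by panels of marker genes that include no member, and every class is called by its panel. The classes reaching 200 cells in both libraries were astrocyte-like (4128 KO, 2171 WT cells), oligodendrocyte-like (790 KO, 622 WT), microglia-like (303 KO, 243 WT) and neuroblast-like cells (440 KO, 225 WT). Endothelial-like (250 KO, 151 WT), T cell-like (91 KO, 65 WT) and B cell-like cells (85 KO, 74 WT) are described without being compared. In all 7 classes no marker of the class's own panel was at 0 in either library. Neurons were nearly absent, with 1 neuron-like cell in each library, so the members were not measured in mature neurons. Dipk1c, the name under which the tables list Fam69c, was at 33.8 CPM (its UMIs per 1000000 UMIs of the class) in KO and 60.0 CPM in WT astrocyte-like cells, from 1200 and 1453 UMIs, so transcripts of the targeted gene were still captured in the KO library. Because these are 3' counts and the deleted part is not known here, this level does not check the label.

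All levels are CPM of a class, and a ratio is KO over WT. The intervals given are exact, at 95%, and reflect counting error alone, since PCR and the pool add error that 1 library per genotype cannot show. For the same reason no test was made, and genotype cannot be told apart from pool, sort and library. A member was counted as past the fold when it had at least 50 UMIs in the class and a ratio of at least 1.5 in either direction. By this rule 0 of the 8 measured members were past the fold in astrocyte-like cells, where 12.3% of 13434 genes were, 2.81% higher and 9.45% lower in KO. In oligodendrocyte-like cells 2 of 7 were, Atf5 and Asns, both higher in KO, where 8.48% of 10460 genes were past the fold, 3.32% higher and 5.16% lower. In microglia-like cells 0 of 4 were, beside 13.8% of 7243 genes, 6.53% higher and 7.29% lower. In neuroblast-like cells 2 of 7 were, Asns and Chac1, both higher in KO, beside 12% of 9807 genes past the fold, 2.06% higher and 9.96% lower. The median log2 ratio of the measured members was -0.05 in astrocyte-like, 0.36 in oligodendrocyte-like, -0.0015 in microglia-like and 0.22 in neuroblast-like cells, where the medians of all such genes were -0.11, -0.06, -0.01 and -0.10. The oligodendrocyte-like median is the value of Slc7a11 (57 KO and 40 WT UMIs), whose ratio interval of 0.843 to 1.98 included 1. The Slc7a11 level in that class lay below what carried-over glial transcripts would bring, as given below. The ratios of the members thus spread to both sides of 1 in the astrocyte-like class, with 4 of 8 above it. They lay mostly above 1 in the oligodendrocyte-like class, with 6 of 7. Of these 6, Ddit3 (log2 0.07) was below the median of genes of similar transcript length (0.18). Psat1 (0.06) was near its own such median (0.04), and Atf5, Asns, Phgdh and Slc7a11 were above theirs.

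**Figure D1:**
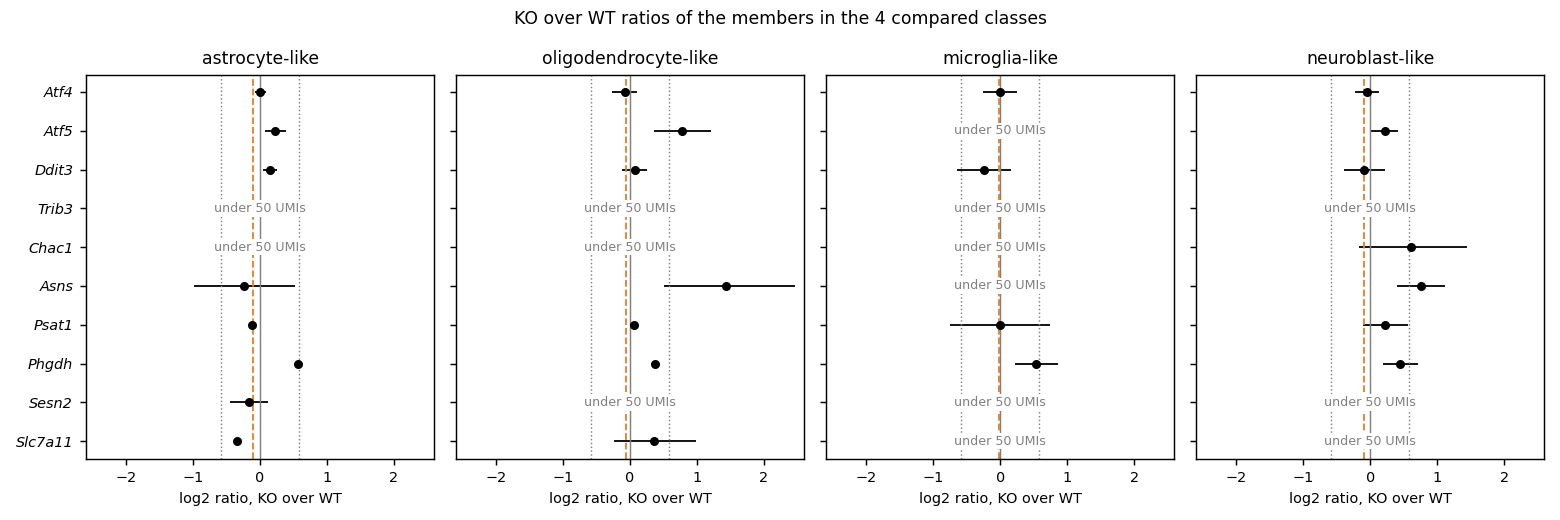
Log2 ratio of each member, KO over WT, in the 4 compared classes (x axis), with exact 95% counting intervals as bars; dotted lines mark 1.5-fold, the dashed line marks the median of all genes with at least 50 UMIs, and members with fewer UMIs are named without a point. Points beyond a dotted line occur for Atf5 and Asns in oligodendrocyte-like cells and for Chac1 and Asns in neuroblast-like cells.

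Atf4 itself was at a similar level in both libraries in every described class. The gene (ENSMUSG00000042406, GRCm38 chromosome 15, 80255184 to 80257541, plus strand) had 78.0 CPM in KO and 77.7 CPM in WT astrocyte-like cells, a ratio of 1.00 (0.947 to 1.07). Oligodendrocyte-like cells had 50.5 CPM in KO and 53.4 CPM in WT, a ratio of 0.95 (0.832 to 1.08). Neuroblast-like cells had 121 CPM in KO and 126 CPM in WT, with a ratio of 0.97 (0.853 to 1.10). The intervals of all 3 lie within 1.5-fold in either direction. The transcript level says nothing of how much protein is made from it. Microglia-like cells held 174 CPM in each library (246 KO and 255 WT UMIs). Across classes Atf4 was highest in microglia-like cells, followed by B cell-like (126 CPM in KO, 138 CPM in WT), neuroblast-like, endothelial-like (113 CPM in KO, 105 CPM in WT), astrocyte-like, T cell-like (73.5 CPM in KO, 70.6 CPM in WT) and oligodendrocyte-like cells. The KO and WT values of neighbouring classes did not cross anywhere in that order, but counting intervals of neighbouring classes overlapped at most steps. B cell-like cells (93.9 to 165 CPM in KO, 110 to 171 CPM in WT) overlapped microglia-like cells (153 to 197 CPM in KO, 154 to 197 CPM in WT) as well as neuroblast-like and endothelial-like cells, and T cell-like cells (53.6 to 98.3 CPM in KO, 51.1 to 95.1 CPM in WT) overlapped the astrocyte-like and oligodendrocyte-like classes.

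Each cell was also thinned to 2000 UMIs, which gives the cells kept an equal depth, and cells with fewer UMIs were left out. This left out 85 KO and 53 WT microglia-like, 83 KO and 31 WT endothelial-like, and 34 KO and 50 WT oligodendrocyte-like cells. Among neuroblast-like cells 72 KO and 9 WT cells were left out. Atf4 was then found in 26.1% of 218 KO and 28.4% of 190 WT microglia-like cells. In oligodendrocyte-like cells it was found in 8.73% of 756 KO and 10.1% of 572 WT cells. The classes between did not all keep the order of the levels: B cell-like cells had 18.8% of 85 in KO and 30.1% of 73 in WT, endothelial-like cells 22.8% of 167 in KO and 20.8% of 120 in WT, and neuroblast-like cells 19.6% of 368 in KO and 15.7% of 216 in WT. Without thinning the shares were 47.2% of KO and 51.0% of WT microglia-like cells, at median depths of 5140 and 6705 UMIs, and 43.2% of KO and 47.4% of WT oligodendrocyte-like cells, at 11342.5 and 13833 UMIs. Within microglia-like cells Atf4 was higher where both Ccl3 and Ccl4, chemokine genes of activated microglia, were detected. Those cells had 259 CPM in KO and 237 CPM in WT (38 KO and 49 WT cells), while the remaining cells had 157 CPM in KO and 153 CPM in WT. The cells with both chemokines were deeper, with median UMIs of 6453 in KO and 7895 in WT against 4812 in KO and 6033 in WT for the others.

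Atf5 encodes a factor related to ATF4 that takes part in the mitochondrial stress response and, in the developing brain, in holding neural progenitors in a proliferating state. The gene lies on the minus strand of chromosome 7 (44812256 to 44816658) and overlaps Nup62 and Il4i1 on the other strand. The handling of read strand in the counting is not stated in the labels or headers, so reads of such overlaps may be shared. Its level set neuroblast-like cells apart, with 109 CPM in KO and 94.0 CPM in WT (555 and 318 UMIs; ratio 1.16, 1.01 to 1.34). Astrocyte-like cells had 26.2 CPM in KO and 22.3 CPM in WT, a ratio of 1.17 (1.05 to 1.31). Oligodendrocyte-like cells had 14.0 CPM in KO and 8.17 CPM in WT, from 137 and 72 UMIs, a ratio of 1.72 (1.28 to 2.32). Endothelial-like cells had 17.8 CPM in KO and 17.3 CPM in WT. The lymphocyte-like and microglia-like classes were lower, with 12 KO and 4 WT UMIs in microglia-like cells, 3 KO and 1 WT UMIs in T cell-like cells, and 0 KO and 6 WT UMIs in B cell-like cells (3 UMIs there would make 7.25 CPM in KO and 5.05 CPM in WT). The Atf5 ratio was above 1 in each of the 4 compared classes, although the microglia-like one rested on 16 UMIs in all and its interval included 1. With the median of genes of similar transcript length removed, the astrocyte-like log2 ratio was 0.02 instead of 0.23. Within that class the ratio was 0.73 (0.561 to 0.974) in cluster 2 and above 1 in the other clusters. Among neuroblast-like cells it was 0.88 (0.661 to 1.18) in cluster 8 and 1.19 (1.01 to 1.40) in cluster 10.

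The higher Atf5 level of the KO oligodendrocyte-like cells was seen in both kinds of mature oligodendrocyte that the markers Klk6 and Opalin separate. Cells with a Klk6 UMI and no Opalin UMI had 29.7 CPM in KO and 14.97 CPM in WT (73 KO and 41 WT cells; ratio 1.98, 1.02 to 4.10). Cells with an Opalin UMI and no Klk6 UMI had 10.4 CPM in KO and 7.40 CPM in WT (591 KO and 489 WT cells; ratio 1.41, 0.974 to 2.06). The Klk6 group had the higher level in each library and also the greater depth, at median UMIs of 16555 in KO and 21894 in WT against 10998 in KO and 13724 in WT. Atf5 stayed past the fold in oligodendrocyte-like cells under each alternative run except thinning to 2000 UMIs per cell, where its log2 ratio was 0.46.

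Ddit3 encodes CHOP, a C/EBP-family factor induced by lasting endoplasmic reticulum stress and linked to cell death. All of its UMIs were counted on ENSMUSG00000025408 (chromosome 10, 127290774 to 127296288, plus strand), and the second identifier, ENSMUSG00000116429, had 0 UMIs in both libraries. Its 3' end overlaps Mars on the opposite strand by 68 bases. Microglia-like cells had the highest level, 67.8 CPM in KO and 80.0 CPM in WT, a ratio of 0.85 (0.640 to 1.12). Oligodendrocyte-like cells had 51.7 CPM in KO and 49.4 CPM in WT, and astrocyte-like cells 50.1 CPM in KO and 45.2 CPM in WT. Neuroblast-like cells had 43.7 CPM in KO and 46.4 CPM in WT. These levels lay close together, and the astrocyte-like values crossed those of the oligodendrocyte-like and neuroblast-like classes. The astrocyte-like ratio of 1.11 (1.03 to 1.20) was the sole Ddit3 ratio whose counting interval left out 1 among the compared classes, and it fell below 1 (log2 -0.16) once the median of genes of the same transcript length was removed. Endothelial-like, T cell-like and B cell-like cells were lower, between 15.2 and 23.0 CPM in either library.

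Few cells held UMIs of several stress regulators, each of which was itself seldom detected. At 2000 UMIs per cell Ddit3 was found in 9.21% of KO and 7.36% of WT astrocyte-like cells, Sesn2 in 1.52% of KO and 1.38% of WT cells, and Trib3 and Chac1 in at most 1 cell of either library. At that depth 6 of 3878 KO astrocyte-like cells (0.155%, exact Clopper-Pearson interval 0.0568 to 0.336%) had UMIs of at least 2 of Ddit3, Trib3, Chac1 and Sesn2, and so did 1 of 1956 WT cells (0.0511%, 0.00129 to 0.285%). At 4000 UMIs per cell these were 11 of 3316 KO cells (0.332%) and 8 of 1742 WT cells (0.459%), so the order of the libraries turned with the thinning. In oligodendrocyte-like cells 0 of 756 KO and 0 of 572 WT cells did at 2000 UMIs, which allows shares of up to 0.397% in KO and 0.524% in WT when the limit is set at 3 cells. In neuroblast-like cells 3 of 368 KO and 0 of 216 WT cells did, where 0 allows up to 1.39% in WT by the same limit. Without thinning, 2.16% of KO and 3.22% of WT astrocyte-like cells met the criterion, at median depths of 8882 UMIs in KO and 11764 UMIs in WT. Whether these numbers differ from those that separate detection of each gene would give was not tested.

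Trib3, Chac1 and Sesn2 are among the members most often used to read out an active stress response, and they were scarce in glia of both libraries. Trib3 encodes a pseudokinase that is induced by ATF4 and CHOP and restrains them in turn (chromosome 2, 152337422 to 152344032, minus strand). It had 1 UMI in KO and 5 UMIs in WT astrocyte-like cells, which hold 35550702 and 24223002 UMIs in all. It had 2 KO and 1 WT UMIs in oligodendrocyte-like cells, 1 KO and 0 WT in microglia-like cells, and 3 KO and 2 WT in neuroblast-like cells. Endothelial-like cells stood apart with 11 KO and 9 WT UMIs from far smaller totals, or 11.5 CPM (5.74 to 20.6) in KO and 8.64 CPM (3.95 to 16.4) in WT. Each of those UMIs came from a separate cell, 4.40% of 250 KO and 5.96% of 151 WT cells, at median depths of 2766 UMIs in KO and 4341 UMIs in WT, against 1 cell in each library of the astrocyte-like class. At 2000 UMIs per cell these were 4 of 167 KO cells (2.40%) and 1 of 120 WT cells (0.833%), against 0 of 3878 KO and 0 of 1956 WT astrocyte-like cells. T cell-like cells had 2 KO and 4 WT UMIs, and B cell-like cells 2 KO and 0 WT UMIs.

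Chac1 encodes an enzyme that breaks down glutathione (chromosome 2, 119351229 to 119354381, plus strand). Neuroblast-like cells had the highest level, 9.05 CPM (6.62 to 12.1) in KO and 5.91 CPM (3.61 to 9.13) in WT. The counts behind it were 46 UMIs in KO and 20 UMIs in WT, found in 22 of 440 KO and 12 of 225 WT cells. The ratio was 1.53, past the fold, with an interval of 0.888 to 2.73 that includes 1. Endothelial-like cells had 5 UMIs in each library. Astrocyte-like cells had 4 UMIs in each, and oligodendrocyte-like cells 4 in KO and 2 in WT. No UMI was found in microglia-like, T cell-like or B cell-like cells of either library, where 3 UMIs would make 2.12 CPM in KO and 2.05 CPM in WT microglia-like cells.

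Sesn2 encodes sestrin 2, which senses leucine and restrains the growth kinase mTORC1 (chromosome 4, 132492032 to 132510501, minus strand). It overlaps Gm12981 on the same strand by 6089 bases, so reads in the shared stretch may be split between the genes. Astrocyte-like cells had 6.64 CPM in KO and 7.43 CPM in WT (236 and 180 UMIs; ratio 0.89, 0.733 to 1.09). Microglia-like cells had 7 UMIs in KO and 15 UMIs in WT, and oligodendrocyte-like cells 13 UMIs in KO and 24 UMIs in WT. The oligodendrocyte-like ratio was 0.49 (0.228 to 0.998), from too few UMIs to be counted. The ratio was below 1 in each of the 4 compared classes, and the interval included 1 in 3 of them. The astrocyte-like log2 ratio did not keep its sign under the alternative runs. It was -0.007 instead of -0.16 with the median of genes of the same transcript length removed. With cells thinned to 2000 UMIs it was 0.16.

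**Figure D2:**
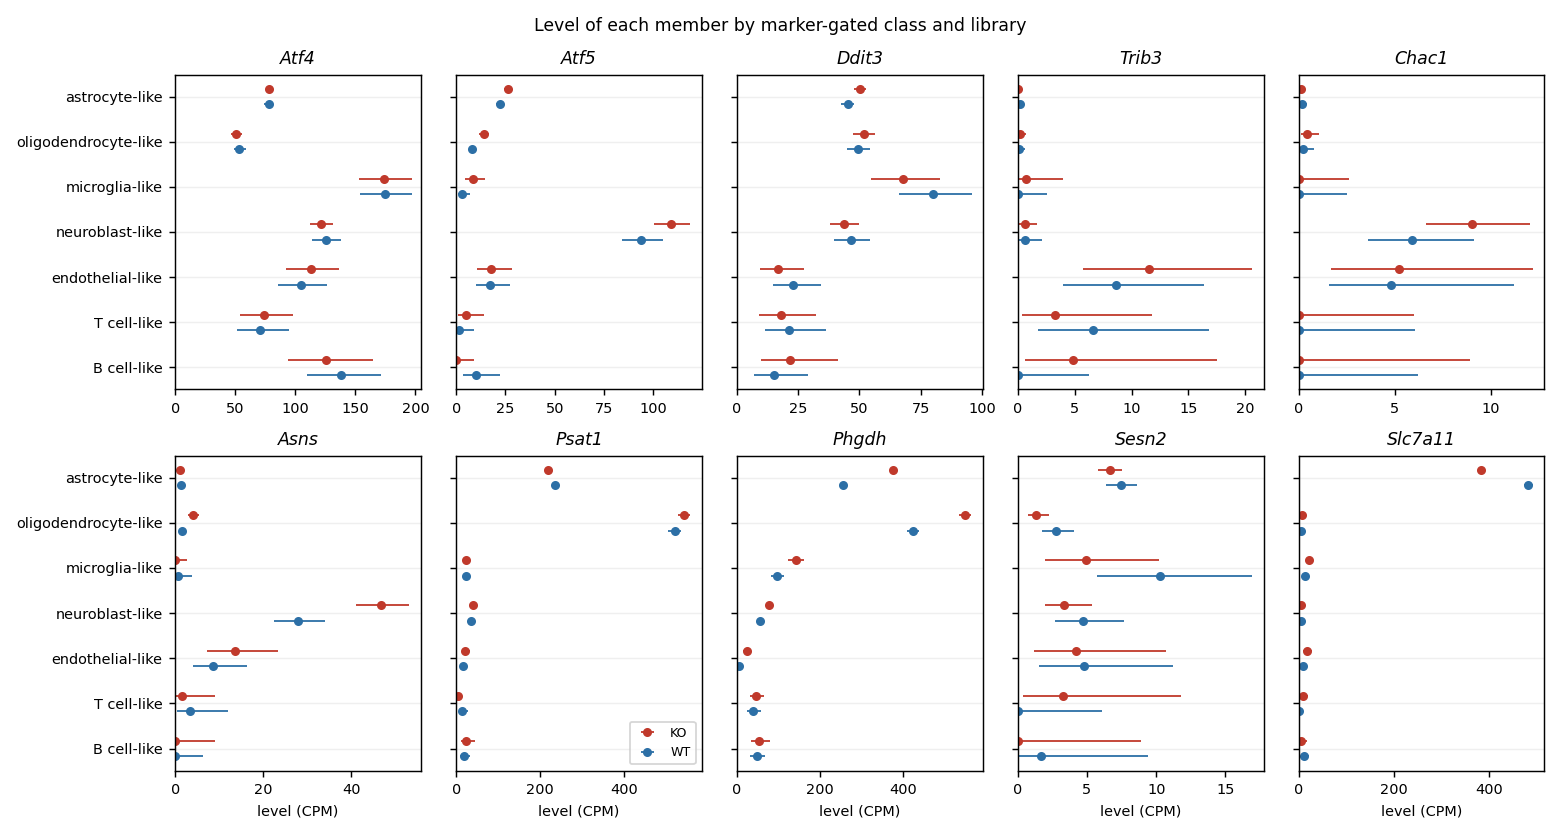
Level of each member in CPM (x axis, a scale of its own per gene) in the 7 described classes (y axis), KO in red above WT in blue, with exact 95% Poisson intervals. Atf5, Chac1 and Asns peak in neuroblast-like cells, Trib3 in endothelial-like cells, Psat1 and Phgdh in oligodendrocyte-like and astrocyte-like cells, and Slc7a11 in astrocyte-like cells.

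Of the 3 members that make amino acids, Asns behaved differently from the serine pathway genes. Asns encodes asparagine synthetase (chromosome 6, 7675169 to 7693254, minus strand) and is among the most used readouts of the amino acid response. In neuroblast-like cells it had 46.8 CPM in KO and 27.8 CPM in WT, from 238 and 94 UMIs, a ratio of 1.69 (1.32 to 2.16). A UMI was found in 79 of 440 KO cells (18.0%) and 34 of 225 WT cells (15.1%). At 2000 UMIs per cell it was found in 4.35% of 368 KO and 1.39% of 216 WT cells, which are 16 and 3 cells. That depth left out 72 KO and only 9 WT cells of the class, and the part of this in the shares was not tested. At 4000 UMIs per cell the shares were close, 8.55% of 339 KO and 7.49% of 187 WT cells. For comparison, 0.206% of 3878 KO and 0.204% of 1956 WT astrocyte-like cells held a UMI at 2000 UMIs. Endothelial-like cells had 13.6 CPM in KO and 8.64 CPM in WT, from 13 and 9 UMIs. Oligodendrocyte-like cells had 3.99 CPM in KO and 1.47 CPM in WT, from 39 and 13 UMIs, a ratio of 2.71 (1.41 to 5.52). Astrocyte-like cells were near 1 CPM, with 1.01 CPM in KO and 1.20 CPM in WT, and B cell-like cells had 0 UMIs in both libraries. Asns thus lay past the fold in the class with its highest level and in a class with little of it. With a stricter marker gate the neuroblast-like log2 ratio was 0.55 instead of 0.75, below the fold.

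The oligodendrocyte-like Asns difference rested on few UMIs. Of its UMIs, 20 KO and 7 WT lay in cells of cluster 5 (2.78 CPM in KO and 1.02 CPM in WT; ratio 2.72, 1.10 to 7.60) and 2 KO and 0 WT in cluster 14, the main oligodendrocyte-like clusters, and the rest in cells that clustered elsewhere. In cells with an Opalin UMI and no Klk6 UMI there were 20 KO and 12 WT UMIs, a ratio of 1.57 (0.730 to 3.52). With each cell weighed the same the log2 ratio was 0.55 instead of 1.44, below the fold. With a stricter marker gate it was 1.26 and with clusters in place of the gate 1.49, in both cases from too few UMIs to be counted.

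In neuroblast-like cells Asns was found mainly together with cell cycle transcripts. Cells were divided by whether they held UMIs of at least 2 of 8 cell cycle genes (Mki67, Top2a, Cdk1, Ccnb1, Birc5, Ube2c, Cenpf and Hmmr), a list added after the data were seen. With 2 or more, 177 KO and 94 WT cells had 68.1 CPM of Asns in KO and 39.7 CPM in WT, a ratio of 1.72 (1.34 to 2.22). With fewer, 263 KO and 131 WT cells had 4.68 CPM in KO and 5.15 CPM in WT, from 8 and 6 UMIs. Nearly all Asns UMIs of the class, and the whole of its difference between the libraries, were in the cells with cell cycle genes. These cells were also deeper, at median UMIs of 18770 in KO and 22957.5 in WT, against 6354 in KO and 9080 in WT in the others, and the part of depth in this division was not tested. They were 177 of 440 KO and 94 of 225 WT cells of the class.

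Other members were also higher in the neuroblast-like cells with cell cycle genes. Atf5 had 142 CPM in KO and 120 CPM in WT cells with at least 2 such genes, against 44.5 CPM in KO and 44.7 CPM in WT cells with fewer. Phgdh had 105 CPM in KO and 78.9 CPM in WT, against 20.5 CPM in KO and 12.0 CPM in WT. Chac1 had 13.3 CPM in KO and 6.76 CPM in WT (45 and 15 UMIs; ratio 1.97, 1.08 to 3.81), against 1 KO and 5 WT UMIs. Psat1 had 50.7 CPM in KO and 45.1 CPM in WT, against 19.9 CPM in KO and 14.6 CPM in WT. Ddit3 ran the other way, with 40.6 CPM in KO and 42.8 CPM in WT against 49.8 CPM in KO and 53.2 CPM in WT, so Ddit3 did not share this pattern. Atf4 differed by less in fold terms, at 136 CPM in KO and 141 CPM in WT against 91.9 CPM in KO and 96.2 CPM in WT. The same order was found when the neuroblast-like cells were divided by clusters built without the members. Those in cluster 10 had 74.1 CPM of Asns in KO and 45.6 CPM in WT. Those in cluster 8 had 7.25 CPM in KO and 7.58 CPM in WT. Only 149 of the 222 KO and 75 of the 229 WT cells of cluster 10 were in the neuroblast-like class, so this division still depends on the marker gate.

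**Figure D3:**
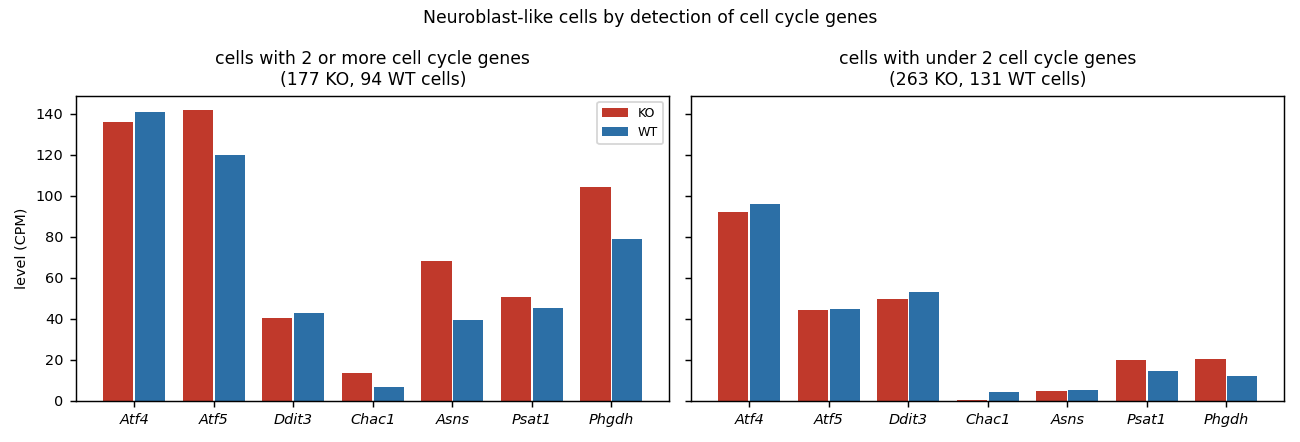
Level in CPM (y axis) of 7 members in neuroblast-like cells with at least 2 cell cycle genes (left) and with fewer (right), KO in red beside WT in blue; each bar is 1 library, with no replicate. Asns, Chac1, Phgdh, Psat1 and Atf5 stand higher on the left in both libraries, and Ddit3 stands higher on the right.

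Phgdh encodes the first enzyme of serine synthesis, phosphoglycerate dehydrogenase (chromosome 3, 98313170 to 98339990, minus strand), and was the member with the most UMIs over all kept cells (20149 KO, 11142 WT). Astrocyte-like cells had 376 CPM in KO and 255 CPM in WT, from 13368 and 6176 UMIs, a ratio of 1.47 (1.43 to 1.52), just inside 1.5-fold. Oligodendrocyte-like cells had 549 CPM in KO and 425 CPM in WT, a ratio of 1.29 (1.24 to 1.35). Microglia-like cells had 141 CPM in KO and 97.1 CPM in WT, with a ratio of 1.45 (1.17 to 1.82), and neuroblast-like cells 76.3 CPM in KO and 55.9 CPM in WT, with a ratio of 1.37 (1.15 to 1.63). In each of the 4 compared classes the KO level was the higher and the counting interval left out 1. T cell-like cells had 45.7 CPM in KO and 39.4 CPM in WT, and B cell-like cells 53.2 CPM in KO and 47.2 CPM in WT. Cells in no class had 138 CPM in KO and 157 CPM in WT, the reverse order, and their median depths were 4316 UMIs in KO and 1316 UMIs in WT.

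The Phgdh level of the endothelial-like class lay below what carried-over glial transcripts would bring. If all astrocyte and oligodendrocyte marker transcripts found in a class had been carried over together with Phgdh in the ratio of their home class, endothelial-like cells would hold 34.8 CPM in KO and 17.3 CPM in WT, more than the 23.0 CPM in KO and 4.80 CPM in WT measured from 22 and 5 UMIs. Microglia-like cells would hold 21.04 CPM in KO and 10.1 CPM in WT, well under the measured levels, and neuroblast-like cells 9.27 CPM in KO and 6.26 CPM in WT. At 2000 UMIs per cell a Phgdh UMI was found in 47.3% of 3878 KO and 36.5% of 1956 WT astrocyte-like cells, and in 66.9% of 756 KO and 58.7% of 572 WT oligodendrocyte-like cells. Endothelial-like cells, which gave the background, had shares of 2.99% of 167 KO and 0 of 120 WT cells, where 0 allows up to 2.50% with the limit at 3 cells. Without thinning the astrocyte-like shares were 80.2% in KO and 75.0% in WT, the oligodendrocyte-like ones 94.4% in KO and 92.4% in WT, and the endothelial-like ones 8.00% in KO and 3.31% in WT.

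Within astrocyte-like cells the Phgdh ratio was smaller in each cluster than in the class as a whole. Cluster 1 had 338 CPM in KO and 271 CPM in WT (ratio 1.25, 1.16 to 1.34), and cluster 2 had 497 CPM in KO and 470 CPM in WT (ratio 1.06, 0.983 to 1.14). Cluster 3 had 229 CPM in KO and 207 CPM in WT (ratio 1.10, 1.02 to 1.19), and cluster 7 had 347 CPM in KO and 310 CPM in WT (ratio 1.12, 1.04 to 1.20). Clusters 4 and 6, of shallow cells, had ratios of 1.15 (0.977 to 1.36) and 1.33 (1.08 to 1.63). The KO level was the higher in all 6 clusters, while the clusters themselves were filled unequally. The KO library had 1183 and 1226 cells in clusters 1 and 2 and 443 in cluster 3, and the WT library 296, 135 and 799. With the clusters given the same weights in both libraries, a setting added after the data were seen, the log2 ratio of Phgdh was 0.17 instead of 0.56. Other genes of the same cells define the clusters, so these weights may also remove differences that go with genotype, and that was not tested.

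**Figure D4:**
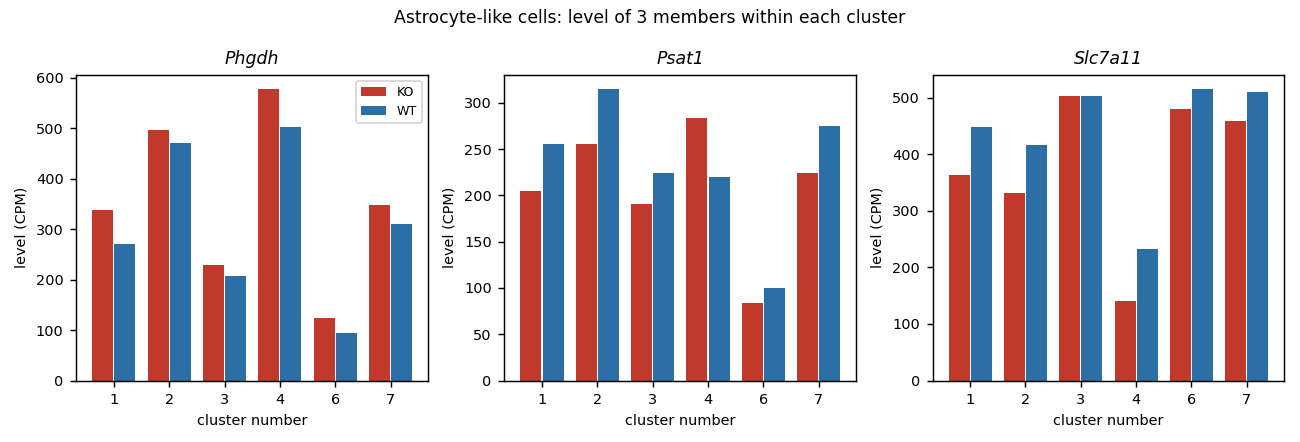
Level in CPM (y axis) of Phgdh, Psat1 and Slc7a11 within each cluster of astrocyte-like cells (x axis, cluster number), KO in red beside WT in blue; each bar is 1 library, with no replicate. Phgdh is higher in KO in all 6 clusters, Psat1 is lower in KO in all but cluster 4, and Slc7a11 is level in cluster 3 and lower in KO in the others.

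Psat1 encodes the second enzyme of the same pathway, phosphoserine aminotransferase (chromosome 19, 15904678 to 15947337, minus strand), and did not follow Phgdh. Astrocyte-like cells had 218 CPM in KO and 235 CPM in WT, from 7734 and 5702 UMIs, a ratio of 0.92 (0.893 to 0.957). Oligodendrocyte-like cells had 541 CPM in KO and 519 CPM in WT, a ratio of 1.04 (1.00 to 1.09). Neuroblast-like cells had 40.3 CPM in KO and 34.6 CPM in WT, with a ratio of 1.17 (0.925 to 1.48), and microglia-like cells had 22.6 CPM in each library from 32 KO and 33 WT UMIs. These differences between the libraries were small beside those between the classes. Endothelial-like cells had 20.9 CPM in KO and 16.3 CPM in WT, near the 27.6 CPM in KO and 19.3 CPM in WT that carried-over glial transcripts would bring. In microglia-like cells such transcripts would bring 14.1 CPM in KO and 10.3 CPM in WT, a large part of the level measured there. In astrocyte-like clusters 1, 2, 3 and 7 the Psat1 ratio lay between 0.80 and 0.85, each interval below 1, and in cluster 4 it was 1.29 (1.01 to 1.65). With equal cluster weights its log2 ratio was -0.27 instead of -0.11, so the setting that brought Phgdh nearer to 1 moved Psat1 further from it.

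In oligodendrocyte-like cells Psat1 differed between the Klk6 and Opalin groups. Cells with Klk6 and no Opalin had 776 CPM in KO and 633 CPM in WT (ratio 1.23, 1.10 to 1.37), and cells with Opalin and no Klk6 had 492 CPM in KO and 486 CPM in WT (ratio 1.01, 0.967 to 1.06). Phgdh had 587 CPM in KO and 393 CPM in WT in the Klk6 group (ratio 1.495, 1.31 to 1.71) and 545 CPM in KO and 428 CPM in WT in the Opalin group (ratio 1.27, 1.21 to 1.34). Both serine genes thus showed the larger ratio in the Klk6 group, a difference between groups that was not tested. The division of astrocyte-like cells by Gfap, a marker of fibrous and reactive astrocytes, changed the Phgdh ratio less. Not every member was so even across that division. Asns had 8 KO and 17 WT UMIs with Gfap (ratio 0.34, 0.127 to 0.832). It had 28 KO and 12 WT UMIs without (ratio 1.57, 0.772 to 3.38). Phgdh had 420 CPM in KO and 283 CPM in WT in cells with a Gfap UMI (ratio 1.49, 1.39 to 1.59), and 366 CPM in KO and 248 CPM in WT in cells without (ratio 1.47, 1.43 to 1.53).

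Slc7a11 encodes xCT, the exchanger that imports cystine for glutathione synthesis in return for glutamate (chromosome 3, 49892526 to 50443614, minus strand). Among the described classes it was a gene of astrocyte-like cells, at 382 CPM in KO and 482 CPM in WT, from 13568 and 11676 UMIs, a ratio of 0.79 (0.772 to 0.812). All other described classes lay between 0 and 21.2 CPM in either library. Oligodendrocyte-like cells had 5.83 CPM in KO and 4.54 CPM in WT, where carried-over glial transcripts would bring 8.65 CPM in KO and 8.17 CPM in WT. Microglia-like cells had 21.2 CPM in KO and 13.0 CPM in WT, where they would bring 16.7 CPM in KO and 12.8 CPM in WT. Neuroblast-like cells had 5.70 CPM in KO and 5.61 CPM in WT, where they would bring 7.19 CPM in KO and 8.10 CPM in WT. The levels in these 3 classes were thus near or below that background, and ratios of the whole classes are not read as differences. Oligodendrocyte-like cells with Klk6 and no Opalin had 17.5 CPM in KO and 3.45 CPM in WT, from 20 and 3 UMIs. Those in cluster 14 had 11.3 CPM in KO and 3.38 CPM in WT, from 24 and 5 UMIs. Their ratios were 5.06 and 3.35, with intervals above 1, and both KO levels exceeded the class background of 8.65 CPM. In the Opalin group and cluster 5 the ratios were 1.15 (0.670 to 1.99) and 1.09 (0.634 to 1.87). The background of these groups alone was not tested. At 2000 UMIs per cell a UMI was found in 46.3% of 3878 KO and 54.7% of 1956 WT astrocyte-like cells, against 0.815% of 368 KO and 0.463% of 216 WT neuroblast-like cells. Without thinning these were 78.0% in KO and 81.5% in WT, against 4.32% in KO and 6.22% in WT neuroblast-like cells, at median depths of 9442.5 UMIs in KO and 12310 UMIs in WT.

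The lower Slc7a11 level in KO was not found in every cluster, and transcript length moved with it. Clusters 1 and 2 had ratios of 0.81 (0.767 to 0.863) and 0.79 (0.734 to 0.859), cluster 4 of 0.60 (0.451 to 0.803) and cluster 7 of 0.90 (0.849 to 0.953). Cluster 6 had a ratio of 0.93, with an interval of 0.848 to 1.02 that included 1. Cluster 3, which held the largest group of WT cells, had 503 CPM in each library (ratio 1.00, 0.948 to 1.05). With equal cluster weights the log2 ratio of Slc7a11 was -0.18 instead of -0.34. Across the genes of astrocyte-like cells the log2 ratio fell with the length of the longest annotated transcript, with a rank correlation of -0.52 over 13431 genes that share the same pair of libraries. The median log2 ratio was 0.31 in the shortest of 20 length bins and -0.46 in the longest. The Slc7a11 transcript has 9223 bases, in that longest bin, and relative to the bin median its log2 ratio was 0.12 instead of -0.34. Phgdh, at 1893 bases, was in a bin with a median of 0.14, and relative to it the log2 ratio was 0.42 instead of 0.56. The trend was present in all 4 compared classes, at rank correlations of -0.47, -0.43 and -0.52 in oligodendrocyte-like, microglia-like and neuroblast-like cells.

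**Figure D5:**
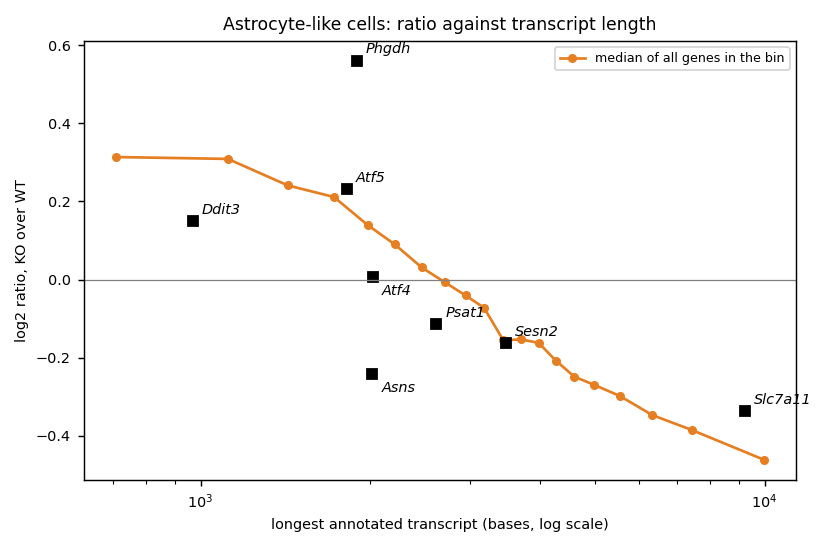
Log2 ratio, KO over WT, in astrocyte-like cells (y axis) against the length of the longest annotated transcript in bases (x axis, log scale); the line joins the medians of 20 length bins over all genes and squares are the members with at least 50 UMIs. The medians run down from 0.31 to -0.46, with Phgdh above the line, Asns below it and Slc7a11 at the long end.

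The remaining Atf4 pathway was read from 47 other genes in 4 lists. In astrocyte-like cells 1 of the 43 with at least 50 UMIs was past the fold and higher in KO and 2 were lower. Eif4ebp1, which encodes a translation repressor, had 15.7 CPM in KO and 9.87 CPM in WT, while Slc7a3, a cationic amino acid transporter gene, and Stc2, a stanniocalcin gene, had 1.01 and 0.619 CPM in KO and 1.86 and 1.28 CPM in WT. In oligodendrocyte-like cells 1 of 35 was higher and 1 lower: Ddit4, a stress-induced inhibitor of mTORC1 signalling, had 128 CPM in KO and 75.2 CPM in WT, and Aldh1l2, a mitochondrial folate enzyme gene, 8.49 CPM in KO and 14.98 CPM in WT. In neuroblast-like cells 1 of 37 was higher and 1 lower, the stress protein gene Nupr1 (20.1 CPM in KO, 13.3 CPM in WT) and the lipoprotein receptor gene Vldlr (16.7 CPM in KO, 25.7 CPM in WT). These shares were below the 12.3%, 8.48% and 12% of all genes in the 3 classes. The tRNA synthetase genes, all 13 measured in each of the 4 compared classes, had 0 past the fold in these 3 classes, with summed levels of 572 CPM in KO and 610 CPM in WT astrocyte-like cells.

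In microglia-like cells 7 of 30 of these genes were past the fold and higher in KO and 1 was lower, where 6.53% of all genes were higher and 7.29% lower. Ddit4 had 92.5 CPM in KO and 21.9 CPM in WT, from 131 and 32 UMIs, a ratio of 4.23 (2.85 to 6.43). Cebpb, which encodes a C/EBP partner of ATF4, had 607 CPM in KO and 375 CPM in WT (ratio 1.62, 1.45 to 1.81). Nupr1 had 108 CPM in KO and 57.4 CPM in WT (ratio 1.88, 1.43 to 2.49), and Eif4ebp1 55.8 CPM in KO and 28.0 CPM in WT (ratio 1.99, 1.35 to 2.98). The others were Mthfd2, a mitochondrial folate enzyme gene, the methionyl-tRNA synthetase gene Mars and the mitochondrial protease gene Lonp1, with ratios of 1.71, 1.54 and 1.66 from 58 and 39 UMIs or fewer in KO and WT. Atf3, an early stress factor gene, was the lower one, at 698 CPM in KO and 1127 CPM in WT (ratio 0.62, 0.571 to 0.670). No member with enough UMIs was past the fold there. Atf4, Psat1 and Ddit3 had ratios of 1.00, 1.00 and 0.85, while Phgdh was higher in KO at 1.45 (1.17 to 1.82). The other 6 members had too few UMIs to be counted. Atf3 is also an immediate early gene that dissociation induces, and 12 such genes summed to 17927 CPM in KO and 21761 CPM in WT microglia-like cells. In astrocyte-like cells they summed to 458 CPM in KO and 482 CPM in WT, and in neuroblast-like cells to 2489 CPM in KO and 2555 CPM in WT. Their part in the levels of the stress genes was not tested.

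The distribution over classes of the 6 members that reached 50 CPM in a class was compared with that of other genes. Over the 7 described classes, with both libraries averaged, the genes with the highest Pearson correlation to Atf4 included Pck2 (0.974) and Fam76b (0.971). Those nearest to Atf5 were Trim37 (0.996), Prdx2 (0.996) and Pkia (0.995), and to Ddit3 were Dnmt3a (0.984), Ppp1r9a (0.980) and Srm (0.977). Psat1 was nearest to the oligodendrocyte lineage factor gene Olig2 (0.996), Kcnq3 (0.987) and Gprc5b (0.985). Phgdh was nearest to Sgcb (0.938), Ldah (0.918) and B3galt5 (0.913), and Slc7a11 to the zinc transporter gene Slc39a12 (0.999), Gm6145 (0.998) and Cspg5 (0.998). No member was among the 3 nearest genes of these 6. Of the pairs that each of the 6 forms with the other members, the closest were Phgdh with Psat1 (0.89) and Atf5 with Asns (0.88), and Atf4 was at 0.14 with Asns, -0.48 with Phgdh and -0.64 with Psat1. These are descriptions over 7 points that share the same libraries, and many genes reach such values over so few points.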

How the data were processed

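For each library the authors deposited UMI counts by gene and cell barcode, raw and not normalized, from Cell Ranger 4.0.0 per the file headers. The submitters' processing notes name mm10, Seurat 3.0 and R 4.0.3 as well. Neither headers nor labels state the annotation release or the handling of strand. The lowest barcode had 501 UMIs in KO and 500 in WT.

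Barcodes with fewer than 500 genes or with over 20% mitochondrial UMIs were left out, which removed 1702 KO and 1998 WT barcodes. Scrublet (scanpy 1.11.5) scored doublets per library. Its automatic threshold marked 164 KO and 0 WT cells and was not used. Instead the cells with the highest scores were removed, at 0.8% per 1000 cells (448 KO, 212 WT). Each cell was scored on 19 marker panels, as the mean over the panel of the log-scaled level divided by its 99th percentile. A class needed 3 markers, a score of 0.25 and a lead of 0.15 over the next panel, thresholds set on the markers alone after the files were seen. This left 550 KO and 1029 WT cells in no class. Clusters (22, Leiden resolution 1, leidenalg 0.10.2, 2000 variable genes without the members, 30 components, 15 neighbours) served as an alternative.

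UMIs were summed per class and library and scaled to CPM, with exact Poisson, conditional binomial and Clopper-Pearson 95% intervals. Beside a count of 0 stands the level that 3 UMIs would make. The interval and ratio steps were tested on simulated data. Positions, lengths and overlaps come from GENCODE M21 (GRCm38), and promoters from RefSeq. Software was scipy 1.17.1, matplotlib 3.10.9, scikit-learn 1.9.0, pandas 2.3.3 and numpy 2.4.6 under Python 3.11.15.

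All 10 members are named in each class. Of the pathway lists, genes past 1.5-fold with at least 50 UMIs were named. The genes most like a member were the 3 with the highest Pearson correlation of log2(CPM + 10), of which 1 is not reported here. The members and lists were chosen with earlier results of these data known.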

Additional observations from a re-analysis of the deposited data

Results flagged for a closer look

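Psat1 lay on opposite sides of no difference in the largest 2 classes. Its log2 ratio, KO over WT, was -0.11 in astrocyte-like cells and 0.06 in oligodendrocyte-like cells, with both counting intervals leaving out 0. The difference between the classes was not tested, since there was 1 library per genotype. The astrocyte-like value was 0.04 with trimmed mean scaling, and the oligodendrocyte-like value kept its sign under each alternative run, between 0.02 and 0.14. It did not keep it within each cluster. In cluster 5 (578 KO, 468 WT oligodendrocyte-like cells) the Psat1 ratio was 0.98 (0.936 to 1.03). In cluster 14 (145 KO, 78 WT) it was 1.13 (1.04 to 1.22).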

How the results depend on the processing

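No paired analysis was possible because each genotype has 1 library and the labels give no replicate numbers. The median log2 ratio of the members stayed within the spread between members in all 4 compared classes under every alternative run. That is a wide bound, which the members themselves set. Within it the astrocyte-like median changed sign, from -0.05 to 0.10 with clusters in place of the gate and with trimmed mean scaling. With cells thinned to 2000 UMIs it was 0.09. The count of members past 1.5-fold moved as follows. In astrocyte-like cells 0 became 1 with trimmed mean scaling (Phgdh) and 1 with each cell weighed the same (Asns, lower in KO). With clusters in place of the gate Asns was higher in KO there, at a log2 ratio of 0.76, while the count stayed 0. In oligodendrocyte-like cells 2 became 1 with a stricter marker gate (Atf5; Asns had a log2 ratio of 1.26 but too few UMIs) and 1 with cells thinned to 2000 UMIs (Asns). It became 3 with no filter on cells, with doublets kept and with the length-bin median removed (Slc7a11 added), and 3 with a minimum of 20 UMIs (Sesn2 added). It stayed 2 with clusters in place of the gate and with each cell weighed the same, but with Slc7a11 in place of Asns. In microglia-like cells 0 became 1 with clusters in place of the gate (Slc7a11) and 2 with a minimum of 20 UMIs (Sesn2 and Slc7a11). In neuroblast-like cells 2 became 0 with a stricter marker gate, where the log2 ratios of Asns and Chac1 were 0.55 and 0.12, and 1 (Asns) with thinning, with the length-bin median removed and with equal cluster weights, an alternative added after the data were seen. There it became 3 with clusters (Slc7a11 added) and 3 with each cell weighed the same (Asns, Psat1 and Phgdh). The causes were not tested.

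Of 260 values under alternatives, 225 stayed within their bound and 35 did not, the bound being the counting interval for a ratio or share, the spread between members for a median and 1.5 times for a count. Among the ratios, those of Atf5, Phgdh, Chac1 and Asns kept their direction in neuroblast-like cells, and those of Atf5, Asns, Psat1 and Phgdh in oligodendrocyte-like cells. In astrocyte-like cells Atf5 and Phgdh kept theirs, between 0.02 and 0.47 and between 0.17 and 0.71. Ddit3 ranged there from -0.16 to 0.39, Slc7a11 from -0.35 to 0.12 and Asns, the widest, from -1.08 to 0.76. Trimmed mean scaling moved all log2 ratios up by 0.15 in astrocyte-like and 0.12 in neuroblast-like cells, and by under 0.1 in the other compared classes. Depth limits Trib3, Chac1, Asns and Sesn2 most, with 31, 78, 436 and 370 UMIs over all kept KO cells and 29, 45, 201 and 307 over all kept WT cells.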

Other observations

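Some classes with fewer than 50 cells in a library also held members, given here as UMI counts and not as levels. Neutrophil-like cells (103 KO, 32 WT) had 89 KO and 50 WT UMIs of Slc7a11, found in 47 KO and 19 WT cells, and 32 KO and 21 WT UMIs of Sesn2, found in 27 KO and 15 WT cells, from 720387 KO and 271826 WT UMIs in all. Ddit3 had 33 KO and 20 WT UMIs in these cells. Fibroblast-like cells (35 KO, 14 WT) had 209 UMIs of Slc7a11 in 11 KO cells and 80 UMIs in 3 WT cells. The fibroblast-like cells also held astrocyte panel transcripts at 2993 CPM in KO and 2883 CPM in WT, and the part of these in the Slc7a11 counts was not tested. Oligodendrocyte precursor-like cells (8 KO, 11 WT) had 10 KO and 45 WT UMIs of Psat1 from 71087 KO and 192692 WT UMIs in all. Ependymal-like cells (27 KO, 21 WT) had 35 KO and 34 WT UMIs of Psat1. These numbers of cells are too small for a comparison between the libraries.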
